A study of Bos taurus with 8 samples.

Results

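The thioredoxin and NRF2 redox genes described here are 10 of the 21880 genes in the tables, and were chosen by symbol: TXN, TXNRD1, PRDX1 and SRXN1 of the thioredoxin arm, the superoxide dismutases SOD1 and SOD2, SLC7A11 and GCLM of glutathione supply, and HMOX1 and NQO1, which encode stress-inducible enzymes. All 10 symbols had a row. The genes were proposed from their unique molecular identifiers (UMIs, here single captured transcripts) per cell type and timepoint. Their differences between timepoints, and between satellite cells and fibro-adipogenic progenitors, are therefore given as values and are not tests. Calves and adults, cycling and G1 cells, and sorted and unsorted cultures were not contrasts of the choice and are tested. The counts in view were summed per donor, and earlier results of these data were known. These tests are therefore not fully independent of the choice.

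Thioredoxin reduces oxidised cysteines in other proteins and is recharged by thioredoxin reductase with NADPH. Peroxiredoxins pass the electrons on to peroxides, and sulfiredoxin rescues peroxiredoxins that have been oxidised too far. Superoxide dismutases turn superoxide into hydrogen peroxide, SOD1 mainly in the cytosol and SOD2 in mitochondria. NRF2, encoded by NFE2L2, is held low by KEAP1 and drives many of these genes when electrophiles or oxidants block KEAP1, while BACH1 represses HMOX1 and related genes until heme releases it. SOD2 is also a well-known target of inflammatory NF-kB signalling.

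Cells came from the semitendinosus muscle of 10 Belgian Blue cattle, 5 calves (donors 2, 4, 5, 7 and 10) and 5 adults (donors 1, 3, 6, 8 and 9), and were measured by droplet single-cell RNA sequencing. Timepoint 1 was freshly isolated muscle and timepoint 2 was passage 0, cells of each animal plated for 72 h on fibronectin in serum-free growth medium, before sorting. Timepoints 3, 4 and 5 were passages 2, 5 and 8 of 3 kinds of culture. Donors 1, 2 and 9 were carried on unsorted, on fibronectin. Donors 5, 6 and 10 were sorted as satellite cells (SCs, the muscle stem cells) and kept on laminin-521, and donors 4, 7 and 8 were sorted as fibro-adipogenic progenitors (FAPs, mesenchymal cells that form fat and fibrous tissue) and kept on collagen I. Donor 3 was present in muscle alone. The sort, the coating, the neighbouring cells and the animals changed together between the kinds of culture and cannot be told apart. Each timepoint pooled its donors in 1 library, so timepoint and library cannot be told apart either. The donor, whose cells of 1 type were summed, was the unit of replication, and at least 10 cells were needed for a value.

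The 5 libraries held 36129 cells with an assigned donor, 2772 to 10405 per library, of 8579 to 22164 barcodes in the tables of each. Median depth was 4184 UMIs per cell in muscle and 18340 to 27239.5 in culture, and median mitochondrial shares were 2.12% to 3.81%. Libraries shared 129 cell barcodes. Levels are a gene's counts-per-million (CPM) over the summed UMIs of a donor's cells, and are compared within a gene, not between genes. Within a timepoint, the mean sum of a marker list was highest in the cell type it names in 18 of 19 cases. The exception was the SC markers at passage 0, at 206 CPM in SCs and 350.3 CPM in smooth muscle and mesenchymal cells (SMMCs). In muscle the donors of these cell types overlapped in the SC markers, at 1172 to 2493 CPM in SCs and 406 to 3695 CPM in SMMCs. In SCs the FAP markers summed to means of 315 CPM in muscle, 1638 CPM at passage 0, 5627 CPM at passage 2, 5619 CPM at passage 5 and 5631 CPM at passage 8, and the SC markers to 1637, 206, 583, 909 and 863 CPM. Transcripts of muscle fibres were counted in the other cell types of muscle as well: 4 myocyte genes summed to means of 243 to 918 CPM in the 6 cell types compared below, and to 0.36 to 4.24 CPM at passage 0. The part of these transcripts in the results was not tested.

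Most of the 10 genes were higher at passage 0 than in muscle. Values at both times were had for 6 cell types. Besides FAPs, SCs and SMMCs these were vascular and lymphatic endothelial cells (VECs and LECs) and monocytes/macrophages. TXN, TXNRD1, PRDX1 and SOD2 were higher in every donor with both values in all 6, and LECs had 3 such donors. HMOX1 went the other way in monocytes/macrophages, and SOD1 stayed near its muscle level in most cell types. Of the 10 genes, 8 passed the filter on low counts in FAPs, 7 in SCs, 7 in VECs, 5 in SMMCs, 6 in monocytes/macrophages and 6 in LECs. Against muscle, 7, 6, 6, 4, 5 and 4 of them passed the threshold used throughout, an adjusted p under 0.05 and a log2 fold change (log2FC) beyond 1 in size. Of all genes tested, 43.4% passed it in FAPs, 34.3% in SCs, 35.1% in VECs, 36.4% in SMMCs, 34.6% in monocytes/macrophages and 29.6% in LECs. Donors of passage 0 all lay above those of muscle for 6, 6, 4, 4, 3 and 4 of them, in the same order of cell types, and for 20.1%, 17.9%, 17%, 15.6%, 14.5% and 17.9% of all genes. These counts describe genes chosen on this contrast.

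Thioredoxin itself, TXN, was at 221 CPM in the lowest donor, 302 in the median and 472 in the highest among FAPs of muscle (n = 10), and at 2969.8, 3428 and 3988 CPM at passage 0 (n = 9), a log2FC of 3.52 (SE 0.12). In SCs the lowest, median and highest donors were at 175, 240.3 and 344 CPM in muscle and at 4194, 5068 and 6037 CPM at passage 0, a log2FC of 4.27 (SE 0.12). In both cell types the lowest donor at passage 0 lay far above the highest in muscle. The log2FC was 3.04 (SE 0.18) in monocytes/macrophages, 2.72 (SE 0.18) in LECs, 2.53 (SE 0.12) in VECs and 2.13 (SE 0.10) in SMMCs. SMMCs had held the most TXN in muscle, 536 CPM over pooled cells with a 95% counting interval of 504 to 570, and SCs far less, 242 CPM.

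TXNRD1, the cytosolic thioredoxin reductase, ranged from 12.5 to 42.4 CPM (median 25.5) in FAPs of muscle and from 96.02 to 244 CPM (median 218) at passage 0, a log2FC of 2.96 (SE 0.19). In SCs it ranged from 13.3 to 50.1 CPM in muscle and from 83.3 to 212 CPM at passage 0, a log2FC of 2.61 (SE 0.26). Neither cell type overlapped between the times. VECs started higher, at a mean of 68.8 CPM, reached 183 CPM (log2FC 1.36, SE 0.16) and did overlap. PRDX1, a cytosolic peroxiredoxin, stood at 199 ± 68.5 CPM (SD, n = 10) in FAPs of muscle and 1117 ± 121 CPM (n = 9) at passage 0, and at 167 ± 41.0 and 999 ± 134 CPM in SCs. Its log2FC was 2.62 (SE 0.15) in FAPs and 2.50 (SE 0.12) in SCs, and between 1.22 and 1.80 in the other 4 cell types. SRXN1, sulfiredoxin, was near the limit of these libraries: 4 UMIs in all FAPs of muscle and none in SCs. At passage 0 it had 531 UMIs in FAPs and 202 in SCs, which in SCs was at least 4.35-fold higher than a floor of 3 counts over the pooled muscle cells. In VECs 1 UMI in muscle and 33 at passage 0 gave a ratio of 11.02 (95% interval 1.85 to 448), where intervals and floors cover counting error only. The ratio was 8.69 (1.80 to 82.7) in monocytes/macrophages and 1.86 (0.406 to 17.3) in SMMCs. In LECs 5 UMIs at passage 0 were too few to give a bound above the floor.

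The superoxide dismutases went apart. SOD2 was at 50.1 to 688 CPM (median 134) in FAPs of muscle and at 1389 to 2966 CPM (median 1938) at passage 0, a log2FC of 3.69 (SE 0.43). In SCs it was at 36.6 to 188 CPM (median 63.1) and then at 1578 to 4047 CPM (median 2179), a log2FC of 4.85 (SE 0.29). No cell type overlapped between the times in SOD2, and the mean went from 24.95 to 492 CPM in VECs, from 40.3 to 851 CPM in SMMCs, from 75.3 to 2842 CPM in monocytes/macrophages and from 8.25 to 1502 CPM in LECs, where the muscle value rested on 2 UMIs. SOD1 was at 421 ± 88.4 CPM in FAPs of muscle and 453 ± 31.5 CPM at passage 0, a log2FC of 0.22 (SE 0.10) with 6 of 9 donors higher. In SMMCs its log2FC was 0.00 (SE 0.11), and in VECs -0.19 (SE 0.09) with 1 of 9 donors higher, turning to 0.03 when no low-count filter was used. In monocytes/macrophages SOD1 went from a mean of 210.4 to 318.7 CPM (0.52, SE 0.17), higher in 6 of 7 donors, and the times overlapped through donor 6, at 409.6 CPM in muscle, the other muscle donors being at 147 to 233 CPM and passage 0 at 254 to 362 CPM. SCs were the cell type whose SOD1 did not overlap between the times: 246 to 339 CPM in muscle and 354 to 472 CPM at passage 0, a log2FC of 0.45 (SE 0.07). That log2FC became 0.81 with no low-count filter and 0.65 with the donor as block.

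In FAPs the glutathione genes GCLM and SLC7A11 and the inducible NQO1 were higher at passage 0 as well. GCLM, the modifier subunit of the enzyme that limits glutathione synthesis, ranged from 12.8 to 25.9 CPM in FAPs of muscle and from 44.0 to 67.8 CPM at passage 0 (log2FC 1.77, SE 0.13), and from 4.13 to 21.7 and 38.1 to 63.0 CPM in SCs (log2FC 2.19, SE 0.20), with no overlap in either. SLC7A11, the cystine importer, had 0 UMIs in all 11 cell types of muscle. In FAPs that was 0 of 7723469 UMIs, which allows up to 0.388 CPM, and the 119 UMIs at passage 0 made it at least 2.25-fold higher. In SCs 39 UMIs at passage 0 were too few to give a bound above the floor. NQO1, a quinone reductase, went from 0 to 17.2 CPM (median 5.29) in FAPs of muscle to 21.1 to 36.2 CPM (median 26.6) at passage 0, a log2FC of 2.01 (SE 0.25). In SCs its mean went from 5.83 to 22.4 CPM, in SMMCs from 1.41 to 14.6 CPM and in VECs from 6.35 to 13.1 CPM.

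HMOX1, heme oxygenase, differed in direction by cell type. In VECs it was at 19.4 to 44.1 CPM in muscle and at 122 to 398 CPM at passage 0 (log2FC 2.70, SE 0.22), with no overlap. FAPs at 17.2 to 57.3 CPM in muscle and 41.7 to 211 CPM at passage 0 did overlap, although all 9 donors present at both times were higher (log2FC 1.67, SE 0.36). SCs, at 0 to 52.7 CPM and then 37.8 to 174 CPM, overlapped as well (log2FC 1.92, SE 0.49), and LECs went from a mean of 28.6 to 127 CPM. Monocytes/macrophages were at 168 to 1722 CPM (median 290.4, n = 10) in muscle and at 54.3 to 267 CPM (median 136, n = 7) at passage 0, with 1 of 7 donors higher and a log2FC of -1.76 (SE 0.53). The muscle mean of 441 CPM was 298.6 ± 93.6 CPM without donor 6, the highest. Cells under this label also differed in their markers: 6 macrophage genes summed to a mean of 9492 CPM in muscle and 1887 CPM at passage 0, and 3 neutrophil genes to 320 and 1684 CPM, of which 2 were at 0 at passage 0. The part of these markers in the HMOX1 and SOD2 values of this cell type was not tested.

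**Figure D1:**
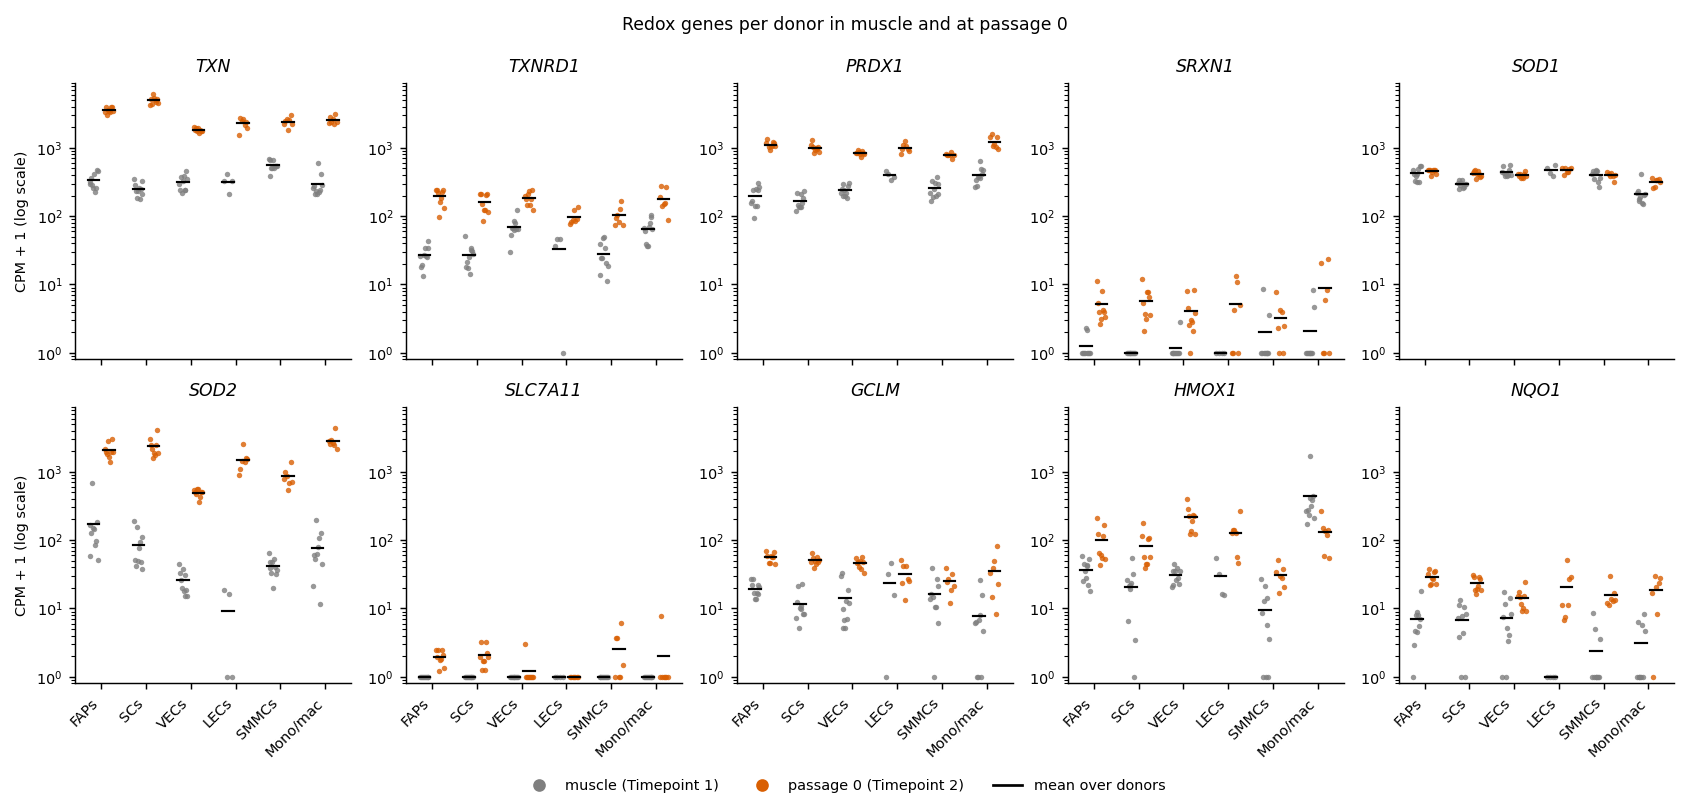
Level of each of the 10 genes (CPM plus 1, log axis) in 6 cell types, with 1 point per donor, grey for muscle and orange for passage 0, and a line at the mean. TXN, PRDX1 and SOD2 separate the times in every cell type, SOD1 in SCs and, but for 1 muscle donor at 409.6 CPM, in monocytes/macrophages, and HMOX1 of monocytes/macrophages is lower at passage 0, at 54.3 to 267 CPM against 168 to 1722 CPM.

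In muscle, the order of cell types differed between the genes. HMOX1 was highest in monocytes/macrophages, 421 CPM over pooled cells (397 to 447). Glial cells at 74.9 CPM (15.5 to 219) and myocytes at 42.1 CPM (16.9 to 86.8) came next on 3 and 7 UMIs, then VECs at 33.7, LECs at 31.6 and FAPs at 30.9 CPM, and these 5 had overlapping intervals. SOD2 was highest in neutrophils, 1448 CPM (1220 to 1705) from 143 UMIs of 51 cells, followed by FAPs at 156 CPM (147 to 165) and myocytes at 144 CPM (92.5 to 215). Donor 4 gave 386 of the 1205 UMIs in FAPs, and without it the mean over FAP donors was 116.4 CPM, so the order of FAPs and myocytes rests on this animal. TXNRD1 was highest in myocytes, at 78.2 CPM (41.6 to 134) from 13 UMIs. VECs at 68.0 CPM (60.2 to 76.4) and monocytes/macrophages at 58.1 CPM (49.2 to 68.2) came next, and the 3 intervals overlapped. FAPs, SMMCs and SCs lay close together at 26.7, 26.1 and 24.6 CPM. Neutrophils held 1 UMI of it and glial cells 0 of 40040 UMIs, which allows up to 74.9 CPM. SOD1 ran from 172 CPM in neutrophils to 439 CPM in LECs and 624 CPM in glial cells (404 to 922), the last from 25 UMIs of 12 cells.

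The other genes of these pathways were counted from a list of 58, and those called here are changes at the threshold above. This list was drawn up with earlier results of these data known, so its counts and medians are not an independent check. Between muscle and passage 0, 25 rose and 6 fell of 54 tested in FAPs, 18 rose and 3 fell of 47 in SCs, and 18 rose and 4 fell of 43 in VECs. The counts were 11 and 5 of 38 in SMMCs, 11 and 4 of 31 in monocytes/macrophages, and 11 and 5 of 35 in LECs. These counts stand beside 43.4%, 34.3%, 35.1%, 36.4%, 34.6% and 29.6% of all genes called in either direction, in the same order of cell types. That background counts rises and falls together, and the share of all genes that rose is not given. In SCs the 21 calls became 10 after thinning to equal UMI totals and 34 with no low-count filter. Without that filter 28 genes were called in SMMCs and 27 in monocytes/macrophages, and in SMMCs 25 with at least 30 cells per value. With the donor as block, 26 genes were called in SMMCs in place of 16, and 23 in monocytes/macrophages in place of 15. The median log2FC of the list was 0.79 in FAPs, 0.68 in SCs and 0.58 to 0.74 in the other cell types, while that of all genes tested lay between -0.03 and 0.06.

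By role, 5 of 6 genes of NADPH supply rose in FAPs, 5 of 6 in SCs, 3 of 5 in VECs, 2 of 5 in SMMCs, 2 of 5 in monocytes/macrophages and 2 of 3 in LECs, among them TKT of the pentose phosphate pathway (log2FC 2.36, SE 0.09, in FAPs and 4.99, SE 0.19, in SCs) and ME1, the cytosolic malic enzyme (3.87, SE 0.33, in SCs). Peroxiredoxins other than PRDX1 rose in 4 of 5 cases in FAPs, 2 of 5 in SCs and 1 to 3 cases in the other cell types. Of the glutathione transferases 3 of 7 rose in FAPs, 1 of 7 in SCs, 1 of 6 in VECs, 2 of 5 in SMMCs, 2 of 3 in monocytes/macrophages and 2 of 4 in LECs, while 2 fell in SMMCs and 1 in LECs. Of the genes of superoxide and peroxide removal 1 rose and 2 fell of 6 in FAPs, 2 rose and 0 fell of 6 in SCs, 2 rose and 1 fell of 5 in VECs, and 1 rose and 1 or 2 fell in each other cell type. Of NRF2 and its regulators 0 rose and 1 fell in each of the 6 cell types. Counts are not given here for the remaining roles, the NRF2 targets among them. By gene, GLRX2 rose in all 5 cell types where it was tested, TXNDC17 in 5 of 6, and BLVRB and TXNL1 each in 4 of 6. NQO2 rose in 2 of 2, while EPHX1 fell in 2 of 2 and CBR1 in 1 of 1. GSR, the reductase that recycles glutathione, went from a mean of 5.06 to 67.1 CPM in FAPs, and also rose in SCs (2.98, SE 0.26). GPX4, which removes lipid peroxides, rose in all 6 cell types, from 157 to 1263 CPM in FAPs, as did FTH1, the heavy ferritin chain, from 1935 to 19347 CPM in SCs. GSTO1, a glutathione transferase, and PGD of NADPH supply were the others that rose in all 6. The light ferritin chain FTL rose in 5 of 6, with a log2FC of 3.27 (SE 0.15) in FAPs and 3.56 (SE 0.15) in SMMCs.

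TXNIP, the inhibitor of thioredoxin, fell in all 6 cell types: its mean was 2132 CPM in FAPs of muscle and 20.2 CPM at passage 0 (log2FC -6.60, SE 0.30), and the change was -3.80 (SE 0.29) in SCs and -6.11 (SE 0.35) in VECs. GPX1 fell in 5 of 6. GPX3, a secreted glutathione peroxidase, fell in FAPs (-5.49, SE 0.47) and LECs (-2.55, SE 0.75) and rose in SCs (1.74, SE 0.60). EPHX1, an epoxide hydrolase listed with the NRF2 targets, fell in FAPs (-4.19, SE 0.22) and monocytes/macrophages (-5.46, SE 0.39). MAFF, a small MAF partner of NRF2, fell in 4 of the 5 cell types tested, by 3.29 in SCs on the log2 scale. NFE2L2 was not called in any of the 6: its mean was 168 CPM in muscle and 95.7 CPM at passage 0 in FAPs, lower in 9 of 9 donors (log2FC -0.70, SE 0.09), its log2FC was -0.61 (SE 0.13) in SCs, and in VECs it was -0.05 (SE 0.13). KEAP1 was not called either (0.76, SE 0.11, in FAPs and 0.38, SE 0.16, in SCs), and BACH1 passed the filter in FAPs alone (0.17, SE 0.23).

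**Figure D2:**
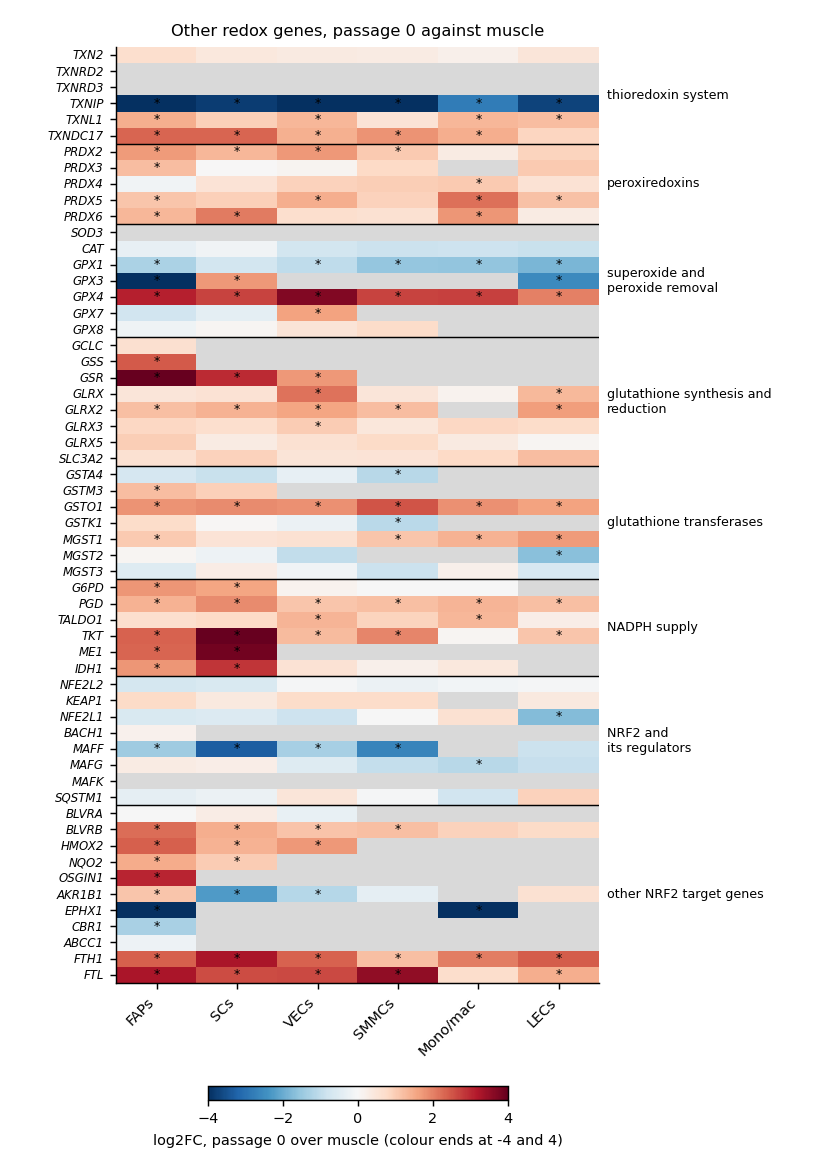
Colour gives the log2FC of passage 0 over muscle (scale ends at -4 and 4) for the other 58 redox genes in rows by role and 6 cell types in columns, with a star where the gene was called and grey where it was not tested. GPX4, FTH1, GSTO1 and PGD are starred red in every column and TXNIP starred blue in every column, while NFE2L2 and KEAP1 carry no star.

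From passage 0 to passage 2 most of the 10 genes were lower again, in FAPs (n = 9 and 8) and SCs (n = 9 and 9). TXN of FAPs was at 2970 to 3988 CPM at passage 0 and 1494 to 2466 CPM at passage 2 (log2FC -0.67, SE 0.10), and in SCs at 4194 to 6037 and 1630 to 3403 CPM (-1.02, SE 0.13). Neither overlapped, and both remained above the muscle range. TXNRD1 went with it, from means of 193 to 76.9 CPM in FAPs (-1.33, SE 0.19) and 158 to 60.2 CPM in SCs (-1.35, SE 0.17). HMOX1 in FAPs went from 97.7 to 34.1 CPM, next to its muscle mean of 35.9 CPM, and was lower in 8 of 8 donors (-1.34, SE 0.31). In SCs it went from 81.6 to 29.1 CPM and was lower in 9 of 9 (-1.43, SE 0.29). Called were 2 of the 10 genes tested in FAPs, where 19.3% of all genes were, and 4 of the 9 tested in SCs, where 10% were. These counts describe genes chosen on values per timepoint and are not tests. Groups without overlap, all lower, numbered 3 in FAPs (TXN, SOD1 and GCLM, against 6.52% of all genes) and 3 in SCs (TXN, TXNRD1 and PRDX1, against 4.16%).

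SOD2 differed widely between the donors of SCs at passage 2. FAPs held 771 to 2590 CPM, close to passage 0 (log2FC -0.17, SE 0.25). SCs ran from 82.9 to 2826 CPM with a median of 535 CPM, after 1578 to 4047 CPM at passage 0, and 9 of 9 donors were lower (-1.11, SE 0.54). Donors ranged from 694 to 2826 CPM within unsorted cultures and from 433 to 2092 CPM within FAP cultures, and from 82.9 to 294 CPM within SC cultures.

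The comparisons of later passages used 6 donors each. Between passages 2 and 5, in the 6 donors of unsorted and FAP cultures, HMOX1 of FAPs went from a mean of 36.7 to 21.3 CPM (-0.66, SE 0.11), GCLM from 35.2 to 24.4 CPM (-0.42, SE 0.09) and SOD1 from 322 to 266 CPM (-0.16, SE 0.06), none overlapping, against 6.88% of all genes without overlap and lower. SLC7A11 was the gene called, at 0.660 and 0.169 CPM (3.63% of all genes were called), from 4 to 29 UMIs per donor at passage 2 and 0 to 10 at passage 5. In SCs of the 6 donors of unsorted and SC cultures, TXN went from 2161 to 1326 CPM (-0.69, SE 0.13), PRDX1 from 622 to 486 CPM (-0.36, SE 0.09) and GCLM from 47.0 to 30.6 CPM (-0.59, SE 0.26), each lower in 6 of 6 donors. SOD2 went from 1110.1 to 524 CPM and was lower in 5 of 6, and none of the 9 genes tested was called, where 1.52% of all genes were. Between passages 5 and 8, HMOX1 of FAPs was at 17.3 to 26.1 CPM and then at 28.1 to 39.4 CPM (0.49, SE 0.12), without overlap (5.08% of all genes, higher). PRDX1 was higher in 6 of 6 donors (0.49, SE 0.16) and NQO1 lower in 6 of 6 (-0.48, SE 0.10). None of the 9 tested was called (2.8% of all genes). In that last passage 4 donors had enough SCs for a value.

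Of the list of 58, 6 rose and 5 fell between passages 0 and 2 in FAPs, of 56 tested, and 1 rose and 6 fell in SCs, also of 56, where 19.3% and 10% of all genes were called in either direction. Among those in FAPs, BLVRA (1.51, SE 0.10), GLRX (1.47, SE 0.17), TXNIP (1.47, SE 0.24) and GPX1 (1.37, SE 0.17) rose, and GSTM3 (-1.56, SE 0.38), HMOX2 (-1.34, SE 0.12), GCLC, the catalytic partner of GCLM (-1.31, SE 0.32), and GSR (-1.25, SE 0.13) fell. TXNIP and GPX1 thus rose after having fallen at passage 0. In SCs GLRX rose (mean 25.4 to 60.2 CPM), while GPX3 (-2.42, SE 0.82), OSGIN1 (-1.69, SE 0.28), FTH1 (-1.53, SE 0.24) and GSR (-1.26, SE 0.16) fell. Median log2FC was 0.14 for the list and 0.03 for all genes in FAPs, and -0.08 and 0 in SCs. After passage 2 a single gene of the list was called, GPX3 in FAPs at passage 5 (-2.20, SE 0.57), which the other count model, DESeq2, did not call. BACH1 in SCs went from 10.3 to 18.9 CPM in 6 of 6 donors without reaching the fold threshold (0.89, SE 0.15, edgeR adjusted p = 0.0089).

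**Figure D3:**
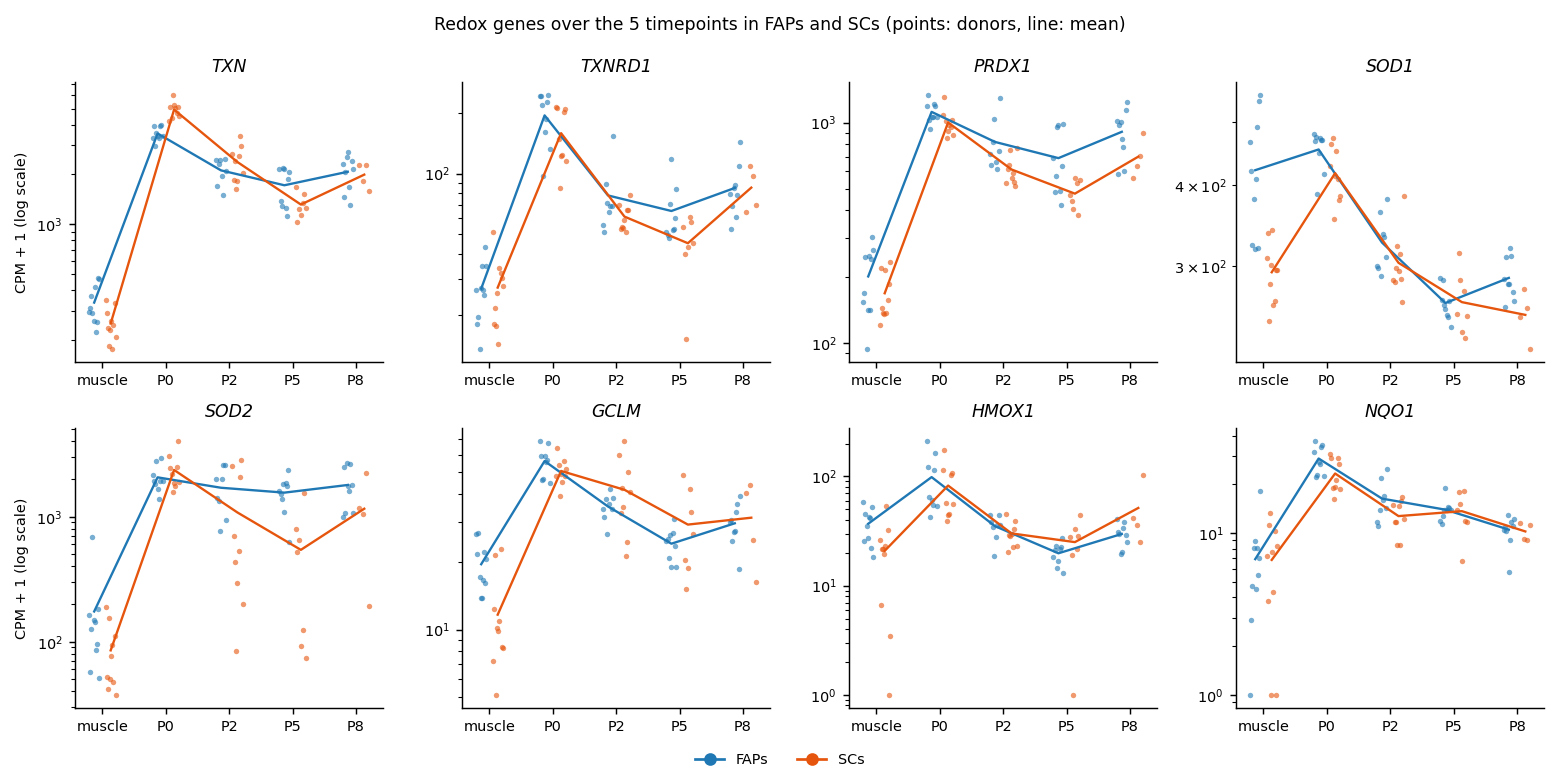
Level in CPM of 8 of the genes at 5 timepoints, with 1 point per donor (FAPs blue, SCs orange) and lines through the means; the y axis differs between panels. TXN peaks at passage 0 in both cell types, at means of 3535 CPM in FAPs and 4929 CPM in SCs, and SOD2 of SCs spreads from 82.9 to 2826 CPM at passage 2.

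SCs and FAPs were set side by side in the same genes, and none of the 4, 9 and 9 genes tested in muscle, at passage 0 and at passage 2 was called, where 19.9%, 10.7% and 14% of all genes were. These counts describe genes chosen on values per cell type and are not tests. In muscle SOD1 was lower in SCs than in FAPs in 10 of 10 donors (292 and 421 CPM, log2FC -0.58, SE 0.11). At passage 0 TXN was higher in SCs in 9 of 9 donors (0.48, SE 0.07), without overlap (6.74% of all genes, higher), and PRDX1, SOD1 and NQO1 were lower in 9 of 9, by log2FC of at most 0.34 in size. PRDX1 was lower in SCs in 8 of 8 donors at passage 2 too (-0.43, SE 0.11). SOD2 was at means of 84.2 CPM in SCs and 174 CPM in FAPs of muscle (-1.19, SE 0.495) and 2366 and 2065 CPM at passage 0 (0.19, SE 0.19). At passage 2 its medians were 535 CPM in SCs and 1705 CPM in FAPs, with overlapping donors (-0.72, SE 0.59). Within the sorted SC cultures SOD2 was at means of 192 CPM in SCs and 852 CPM in FAPs at passage 2, and of 96.2 and 1179.7 CPM at passage 5. Of the list, 3 genes were higher in SCs and 9 lower of 40 tested in muscle, with AKR1B1, an aldose reductase, at 533 and 37.8 CPM (3.81, SE 0.19) and GPX3 at 21.9 and 1171 CPM (-5.76, SE 0.60) at the ends. At passage 0 the counts were 3 and 1 of 56, GPX3 being higher in SCs by then (1.69, SE 0.35), and at passage 2 they were 2 and 3 of 57.

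Age was tested in muscle and at passage 0. By edgeR none of the 10 genes was called between calves and adults, of 7 tested in FAPs, 4 in SCs and 5 in VECs of muscle and 10 in FAPs and 9 in SCs at passage 0, and DESeq2 called none. At an unadjusted p under 0.05 the counts were 0, 1, 2, 2 and 1. Among all genes 1.32%, 0.0963%, 0.796%, 0% and 0% were called. HMOX1 in VECs of muscle came nearest to a separation. The 5 calves were at 34.4, 44.1, 33.9, 37.4 and 34.3 CPM and the 5 adults at 19.4, 20.8, 25.04, 27.1 and 21.8 CPM, without overlap (1.7% of all genes, higher in calves). Each value rested on 4 to 46 UMIs, and the log2FC of 0.68 (SE 0.28) had an adjusted p of 0.235 (edgeR). In FAPs at passage 0 HMOX1 was instead lower in calves, at means of 66.6 and 137 CPM, but the donors overlapped (-1.04, SE 0.40, edgeR adjusted p = 0.967). No gene of the list was called by either tool in the 5 age comparisons, and 10, 3, 4, 6 and 12 of them had an unadjusted p under 0.05.

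Cell cycle was tested over donors, cells in S, G2 or M phase against G1 cells by the deposited phase calls, in a fit without the donor as block unless stated. In FAPs at passage 0 TXN was lower in cycling cells in 9 of 9 donors (2868 to 3906 CPM against 3598 to 4382 CPM), a log2FC of -0.27 (SE 0.06) with an edgeR adjusted p of 0.000663, under the fold threshold. SOD2 was lower in 9 of 9 as well (means 1949 and 2655 CPM, -0.52, SE 0.15, adjusted p = 0.0119). Ranges overlapped for both. In SCs at passage 2 there were 8 cycling and 9 G1 values, and 8 donors had both. Means and the fit without the block used all of these values, so the groups did not hold quite the same donors. HMOX1 was lower in cycling SCs in 6 of 8 donors (means 22.9 and 33.6 CPM, -0.78, SE 0.26, edgeR adjusted p = 0.0431), and with at least 30 cells per value it also passed the fold threshold (adjusted p = 0.00641, and 0.00641 to 0.0523 over the alternatives). SOD2 was lower there in 8 of 8 donors (means 601 and 1171 CPM). The fit without the block, which does not take out the spread between donors, left it short of the threshold (-1.06, SE 0.77, edgeR adjusted p = 0.363). With the donor as block the log2FC was -0.90 (edgeR adjusted p = 0.0103). With at least 30 cells per value, a rule that can leave a donor in 1 group alone, it was -2.66 (edgeR adjusted p = 0.0549), and the adjusted p ran from 0.0103 to 0.481 over the alternatives. None of the 10 genes was called in either comparison by edgeR or DESeq2, with 4 and 1 at an unadjusted p under 0.05, where 5.07% and 4.88% of all genes were called. Of the list, 4 genes fell in cycling FAPs, of 56 tested: GSTM3 (-1.29, SE 0.31), SQSTM1, an autophagy receptor that binds KEAP1 (mean 121 and 276 CPM), GPX3 (-1.25, SE 0.24) and TXNIP (-1.04, SE 0.22). The list's median was -0.18 and that of all genes -0.04. In SCs edgeR called none of the 52 tested (19 at an unadjusted p under 0.05), and 2 with the donor as block, as DESeq2 did.

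Sorted and unsorted cultures were compared within a cell type, 3 donors against 3. At passage 2, SOD2 differed in SCs: those of the sorted SC cultures were at 82.9, 294 and 199.9 CPM (donors 5, 6 and 10) and SCs of the unsorted cultures at 2563, 694 and 2826 CPM (donors 1, 2 and 9), a log2FC of -3.52 (SE 0.69, edgeR adjusted p = 0.0282). Every sorted donor was below every unsorted one, as for 13.5% of all genes. The adjusted p rested on few animals: it was 0.0935 without donor 1, 0.0794 without donor 5, 0.0958 without donor 9, 0.0781 without donor 10 and 0.0767 with no low-count filter, while the log2FC stayed between -3.96 and -3.16 whichever donor was left out. Sorted SC cultures gave 1085 to 1125 SCs per donor and unsorted cultures 122 to 223.

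Passages 0 and 5 were compared in the same way for SCs, a choice made after the values at passage 2 had been seen. At passage 5 SOD2 was at 92.0, 123 and 73.4 CPM in sorted cultures and at 791, 522 and 1542 CPM in unsorted ones (-3.34, SE 0.44, edgeR adjusted p = 0.0139; 14% of all genes lower without overlap), with an adjusted p of 0.0599 without donor 5 and 0.0655 without donor 10. It was the gene called of 8 tested (3.97% of all genes), and PRDX1 was higher in sorted cultures without overlap (means 546 and 427 CPM, edgeR adjusted p = 0.114; 17% of all genes). At passage 0, before sorting, the same animals were at 1578, 1864 and 1884 CPM and at 3037, 2441 and 4047 CPM (-0.87, SE 0.20, edgeR adjusted p = 0.144, by DESeq2 1.55e-05). Donors 5, 6 and 10 were thus all below donors 1, 2 and 9 before the sort too (8.93% of all genes). Whether the difference at passage 2 exceeded that at passage 0 was not tested.

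SCs found inside the sorted FAP cultures had SOD2 at 433, 535 and 2092 CPM at passage 2 (donors 4, 7 and 8, with 95, 50 and 18 cells), above all 3 sorted SC donors. At passage 8 the SCs of SC-culture donor 10 were at 193 CPM and those of donor 6 at 1057 CPM, against 1164 and 2218 CPM in unsorted donors 1 and 9, from 12 to 54 cells each. FAP marker genes in the SCs of passage 2 summed to 2278, 5307 and 2181 CPM in sorted and 8435, 3996 and 6552 CPM in unsorted cultures, and at passage 5 to 6186, 7062 and 4665 CPM and 4028, 4914 and 4648 CPM. The kinds of culture overlapped in these sums at both passages. Myocyte markers summed to 728, 349 and 89.8 CPM in sorted and 223, 948 and 402 CPM in unsorted cultures at passage 2, and at passage 5 to 739, 251 and 786 CPM and 1643, 2270.3 and 1623 CPM, lower in sorted cultures without overlap. Macrophage markers were at 3.95 to 11.5 CPM in both kinds of culture at passage 2. The part of these markers in the SOD2 values was not tested.

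For FAPs the sorted cultures were the FAP cultures of donors 4, 7 and 8, other animals than the sorted donors of the SC test. Their SOD2 log2FC over unsorted cultures was -0.08 (SE 0.30, adjusted p = 0.955) at passage 2, -0.18 (SE 0.20, adjusted p = 0.6) at passage 5 and -0.04 (SE 0.44, adjusted p = 0.999) at passage 8, all by edgeR. FAPs found inside the sorted SC cultures were at 771 and 934 CPM at passage 2 (donors 5 and 10, with 19 and 12 cells), below the 1416 to 2589 CPM of unsorted cultures. At passage 5 they were at 1823, 1089 and 627 CPM (donors 5, 6 and 10) and overlapped with the 1509 to 2344 CPM of unsorted cultures. The difference between SCs and FAPs in this effect was not tested. TXN in FAPs of passage 5 was at 1281, 1256 and 1120.2 CPM in sorted and 2157, 1375 and 1874 CPM in unsorted cultures, without overlap (11.2% of all genes, lower), a log2FC of -0.62 (SE 0.15, edgeR adjusted p = 0.0726). Without overlap at passage 2 were HMOX1, lower in sorted cultures (means 32.0 and 41.4 CPM, 4.63% of all genes, adjusted p = 0.337), and SOD1 and GCLM, higher (14.2% of all genes). At passage 8 SOD1 was higher in sorted cultures without overlap (means 312 and 272 CPM, edgeR adjusted p = 0.999; 6.44% of all genes). In FAPs edgeR called none of the 10, 9 and 9 genes tested at passages 2, 5 and 8, DESeq2 none, and 1, 1 and 0 had an unadjusted p under 0.05 (0.017%, 1.04% and 0.0201% of all genes were called).

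**Figure D4:**
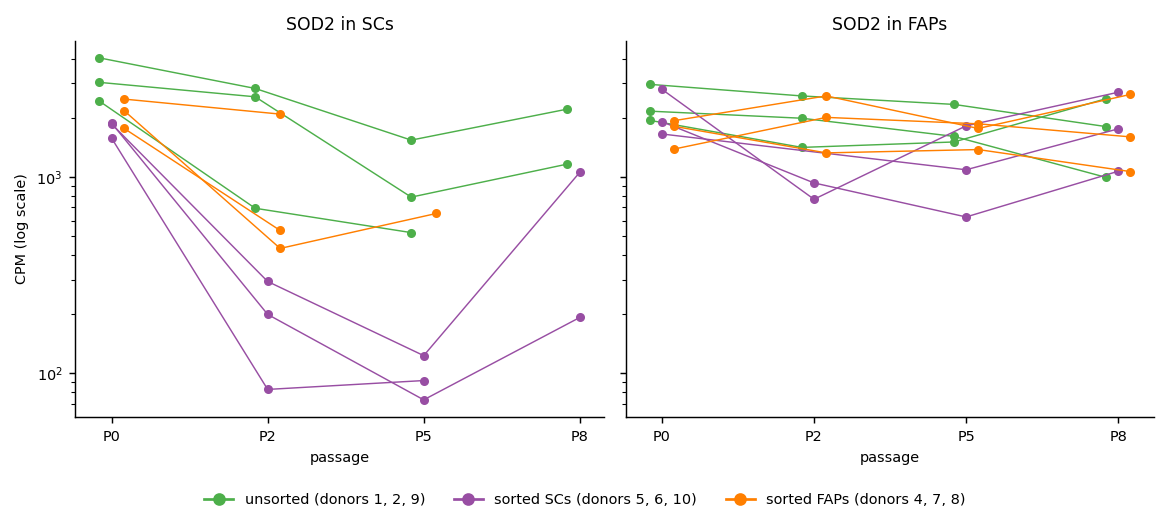
SOD2 level in CPM in SCs and in FAPs at passages 0, 2, 5 and 8, with 1 line per donor coloured by the kind of culture. SCs of the 3 sorted SC cultures drop below 300 CPM at passages 2 and 5, while their FAPs and the SCs of other cultures mostly stay above 500 CPM.

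Of the other genes in SCs at passage 2, SRXN1 was called, at 0.724, 0.722 and 1.10 CPM in sorted and 4.78, 1.08 and 2.71 CPM in unsorted cultures (-1.90, SE 0.51, edgeR adjusted p = 0.0463). The groups overlapped, the unsorted values rested on 3 to 20 UMIs, and the adjusted p exceeded 0.05 without any one of donors 1, 5, 6, 9 and 10, up to 0.226. Thus 2 of 9 genes tested were called, with 7.51% of all genes. SOD1 was higher in sorted cultures without overlap (means 333 and 276 CPM, adjusted p = 0.403; 26.5% of all genes, higher), and TXN was at 1630, 1812 and 2036 CPM against 2661, 1857 and 2968 CPM (-0.57, SE 0.18, edgeR adjusted p = 0.0807). From the list 7 genes fell and 0 rose of 57 tested: GPX3 (-4.12, SE 0.71), TXNIP (-2.26, SE 0.37), SQSTM1 (-1.60, SE 0.21), GPX1 (-1.55, SE 0.17), FTH1, MAFF and ABCC1, with a median of -0.32 for the list and 0 for all genes. Together with SOD2 and SRXN1 this made 9 calls, which became 0 without donor 1, 2 without donor 5, 1 without donor 9 and 4 without donor 10. NFE2L2 was lower as well, under the fold threshold (means 88.7 and 138 CPM, -0.75, SE 0.20, edgeR adjusted p = 0.0488). TXNIP, FTH1 and GPX1 fell in sorted cultures at passage 5 too, by 1.64, 1.18 and 1.14 on the log2 scale, and the 4 calls there, SOD2 included, became 7 without donor 1.

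At passage 0, before the sort and with each animal in a culture of its own, SCs of the animals that would later be sorted as SCs differed in several of the 10 genes from those of animals carried on unsorted. HMOX1 was at 37.8, 43.3 and 54.7 CPM in donors 5, 6 and 10 and at 115, 174 and 107 CPM in donors 1, 2 and 9, a log2FC of -1.50 (SE 0.20, edgeR adjusted p = 0.0214). It was the gene called of 9 tested (0.354% of all genes), and the adjusted p was 0.0846 without donor 1, 0.076 without donor 6 and 0.055 without donor 9. SCs of donors 4, 7 and 8, later sorted as FAPs and outside this test, had HMOX1 at 56.4, 43.9 and 103 CPM. Those values were below donors 1, 2 and 9 as well. TXNRD1 was at 83.3, 121 and 114 CPM against 212, 210 and 207 CPM (-0.999, SE 0.12, adjusted p = 0.0067) and fell just short of the fold threshold, which it passed after thinning (-1.07, adjusted p = 0.00248) and without donor 2, 6 or 10 (adjusted p of 0.012 to 0.0125). Its adjusted p ran from 0.000964 to 0.0483 whichever donor was left out. NQO1 (-0.72, SE 0.14, adjusted p = 0.0464), PRDX1 (-0.39, SE 0.08, adjusted p = 0.0652), SRXN1 (-1.69, SE 0.36, adjusted p = 0.061) and SOD2 were lower as well. All 6 were without overlap, as were 8.93% of all genes in that direction. SRXN1 and SOD2 were called without donor 2 (edgeR adjusted p = 0.0461 and 0.0236), and SRXN1 with no low-count filter (0.00878). FAP markers in these SCs summed to 1414, 1446 and 1389 CPM in donors 5, 6 and 10 and to 2090.2, 1977 and 2044 CPM in donors 1, 2 and 9, also lower without overlap, and their part in these values was not tested. GCLC was the gene of the list that fell, of 56 tested (-1.27, SE 0.19). With HMOX1 this made 2 redox genes called, which became 0 without donor 1 or donor 9, 1 without donor 6, 4 without donor 10 and 5 without donor 2.

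The same animals could be followed in other cell types at passage 0, as a description chosen after the SC values were seen. In FAPs TXNRD1 was at 241, 241 and 244 CPM in donors 1, 2 and 9, at 218, 185 and 224 CPM in donors 4, 7 and 8 and at 96.02, 159 and 131 CPM in donors 5, 6 and 10. HMOX1 in FAPs was at 211, 121 and 163 CPM, at 63.8, 53.5 and 113 CPM, and at 41.7, 60.4 and 52.4 CPM, in the same order, and in VECs at 398, 286 and 224 CPM, at 227, 188 and 235 CPM, and at 122, 134 and 123 CPM. Donors 5, 6 and 10 were thus below donors 1, 2 and 9 in both genes in FAPs and in HMOX1 in VECs, while TXNRD1 in VECs overlapped. The share of all genes lower without overlap in these donors was 8.93% in SCs and was not computed in FAPs and VECs. Donor 2 was a calf and donors 1 and 9 adults, all 3 female, while donors 5 and 10 were calves and donor 6 an adult, donor 5 female and the other two male. The part of age and sex in these values, and in the SC comparisons of the same animals above, was not tested. Labels name SCs, FAPs and unsorted cells together for passage 0, while the design text calls this timepoint unsorted, so a difference in handling between the animals at that time was not tested.

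**Figure D5:**
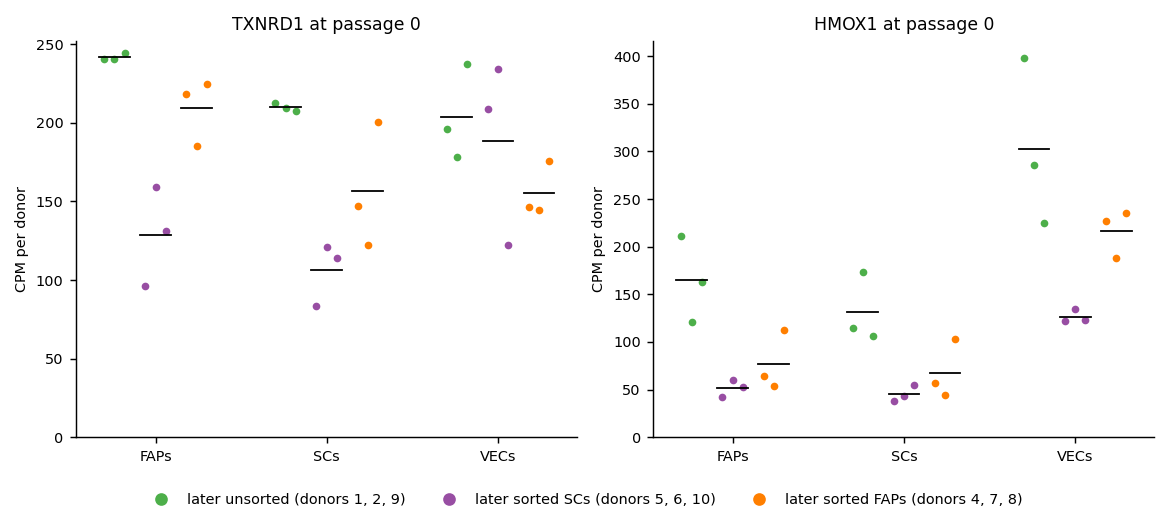
TXNRD1 and HMOX1 level in CPM at passage 0 in FAPs, SCs and VECs, with 1 point per donor grouped by the kind of culture the animal was later used for, and lines at the means. HMOX1 of the later sorted SC donors lies below that of the donors kept unsorted in each cell type, for example at 122 to 134 CPM against 224 to 398 CPM in VECs. Of all genes, 8.93% lie so in SCs, and the share was not computed in FAPs and VECs.

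Across the 19 groups of cell type and timepoint with at least 3 donors, the 8 genes with a mean of 10 CPM or more in some group had a median Pearson r of 0.722 with each other in mean log2(CPM + 1), from -0.012 to 0.923. These are descriptions, since groups share libraries and the genes were chosen on values per cell type and timepoint. A median r between other genes was not computed. Of 11090 genes, those most like TXN were PGK1 (r = 0.965), VCP (0.959) and ENO1 (0.957), PGK1 and ENO1 being glycolytic enzymes. SOD2 was closest to PDXK (0.973), COMTD1 (0.964) and RPS19BP1 (0.964), and TXNRD1 to TIMM10B (0.936), GSR (0.930) and BLM (0.926). PRDX1 was closest to UBN1 (0.978), RPS4Y1 (0.955) and CXCL5 (0.952), GCLM to GRHPR (0.959), SMN2 (0.944) and PSMD2 (0.940), and NQO1 to DRG1 (0.973), MTHFD1L (0.971) and PMVK (0.958). SOD1, with MTMR2 (0.870), COMMD2 (0.868) and NSMCE4A (0.862), and HMOX1, with ASRGL1 (0.908), AGPAT3 (0.874) and GEMIN7 (0.873), had looser neighbours.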

How the data were processed

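Per the labels and the study's methods, the authors aligned the reads to ARS-UCD1.2 with Ensembl annotation in Cell Ranger 6.0.1, assigned donors by genotype and kept cells within 3 median absolute deviations. The deposited tables hold UMI counts per gene and cell, and a deposited cell table gives donor, cell type, phase and percent of mitochondrial counts. A deposited normalised table was not used. All cells of the deposited cell table carry the class of a single donor, doublets within a donor are not marked in it, and no doublet caller was run. Cells of a donor and type were summed (10 or more cells) and fitted in edgeR 4.0.16 (R 4.3.3, TMM, filterByExpr, robust quasi-likelihood test, Benjamini-Hochberg over all genes). The kind of culture was a covariate only where passages from 2 to 8 were compared with each other. All other comparisons, those of SCs with FAPs included, were fitted without this covariate. SE is the log2FC over the root of F. p-values measure the spread between donors. Where a donor gave a value to both groups, as in cycling against G1 cells, fits without the block treated these values as independent. The ages, sexes and kinds of culture of donors come from the study's donor table and design text.

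The 10 genes, the list of 58 (61 symbols, 60 with a row, 2 standing for several genes and left out) and the marker lists were chosen with earlier results of these data known. Named from the list are, in each comparison, up to 4 called genes in each direction by size, and NFE2L2, KEAP1 and BACH1, and for each of the 10 genes the 3 with the highest r. GPX3, TKT and others named beside them at a second cell type, GCLC and the lesser-called genes FTH1, MAFF and ABCC1 were named after their values were seen. So were GLRX2, TXNDC17, BLVRB, TXNL1, NQO2 and CBR1. Same-donor samples come from the same animal: their deviations correlated at -0.129 to 0.183 between passage 0 and muscle over the 6 cell types, -0.167 to 0.354 between passages 0 and 2, 0.226 to 0.648 between later passages, 0.0193 to 0.412 between SCs and FAPs and 0.193 to 0.814 between cycling and G1 cells. With the donor as block the calls in the list went from 16 to 26 in SMMCs and from 15 to 23 in monocytes/macrophages between muscle and passage 0. Alternatives were DESeq2 1.42.0, no low-count filter, 30 cells, thinning to the smallest UMI total, the block, sex as a covariate for age and leaving out donors. On simulated data with 200 genes drawn to change, 97.5% to 100% of those tested were recovered, with 0 to 3 false calls. The simulation gave every gene the same dispersion, had no donor effects and drew changes above the fold threshold alone. Recovery of smaller changes, or under a wider spread between donors, was not tested. Figures were drawn with matplotlib 3.10.9.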

Additional observations from a re-analysis of the deposited data

Results flagged for a closer look

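In 15 of 138 groups of donors with 4 to 10 values, 1 donor stood far from the others by Dixon's criterion, which chance flags in about 1 of 20 groups. Donor 6 stood apart in monocytes/macrophages of muscle in 3 genes: HMOX1 at 1722 CPM (others 168 to 437), SOD1 at 410 CPM (147 to 233; 409.6 before rounding) and TXN at 602 CPM (207 to 415). It was also high in SOD2 of LECs at passage 0, at 2565 CPM (899 to 1562), in NQO1 of SMMCs at passage 0, at 28.9 CPM (10.0 to 15.6), and in FAPs at passage 5 in NQO1, at 18.1 CPM (10.3 to 13.6), and TXNRD1, at 117 CPM (47.2 to 82.6).

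Donor 4 had SOD2 of 688 CPM in FAPs of muscle, where the other donors held 50.1 to 182 CPM, and without it the mean was 116.4 ± 46.9 CPM. Its FAPs held 144 CPM of macrophage markers, the highest of the 10 donors (others 41.9 to 98.7 CPM), and 1.78 CPM of neutrophil markers (0 to 3.70 CPM over all donors), and the part of these markers in the SOD2 value was not tested. Donor 9 was high at passage 0 in HMOX1 of LECs, at 267 CPM (45.5 to 139.9), and in SOD2 of monocytes/macrophages, at 4431 CPM (2133 to 2869). Donor 10 was high in NQO1 of FAPs in muscle, at 17.2 CPM (0 to 7.93), in SOD1 of SCs at passage 2, at 384 CPM (263 to 321), and in TXNRD1 of FAPs at passage 2, at 152 CPM (50.5 to 88.1) from 57 UMIs of 12 cells. Donor 1 was high in TXNRD1 of SCs in muscle, at 50.1 CPM (13.3 to 32.9) from 8 UMIs, and in SRXN1 of FAPs at passage 5, at 5.08 CPM (0.893 to 2.56).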

How the results depend on the processing

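Outside the runs that left out a donor, 957 values of the 10 genes stayed within the spread or on their side of the threshold, 10 moved, 3 gained and 1 lost the call, and no called difference changed sign. Several uncalled differences did, among them SOD1 with no low-count filter in VECs (0.03, from -0.19) and LECs (0.32, from -0.09), SOD2 of FAPs between passages 0 and 2 with 30 cells (0.05, from -0.17) and TXNRD1 of cycling SCs with 30 cells (0.07, from -0.10). Calls in the list between muscle and passage 0 were 34 without filter and 10 after thinning in SCs (21 as reported), 28 without filter, 25 with 30 cells and 26 with the donor as block in SMMCs (16), and 27 without filter and 23 with the block in monocytes/macrophages (15). After thinning they were 6 for passage 2 against 0 in FAPs (11), and 5 in muscle (12) and 2 at passage 2 (5) for SCs against FAPs. DESeq2 gave 0 for passage 5 against 2 in FAPs (1), 2 for cycling SCs (0; 5 with 30 cells, 2 with the block) and 2 for sorted FAPs at passage 5 (0). The blocked fits changed no other count by over 1.5 times. Leaving out donors in turn gave 12 to 17 calls in LECs (16), 0 to 1 for age in FAPs of muscle and 0 to 0 in the other age comparisons, 0 to 1 in sorted FAPs at passage 5 and 0 to 0 at passages 2 and 8, and 0 to 10 in sorted SCs at passage 2 (9), 0 to 5 at passage 0 (2) and 3 to 7 at passage 5 (4), the last 6 comparisons counting the 10 genes too. The cause of these changes was not tested. With 30 cells, monocytes/macrophages and LECs gave no value. The mean log2 TMM factor of the first group minus that of the second was -0.122 for passage 0 against muscle in FAPs. In FAPs it was also -0.106 for passage 5 against 2, 0.135 for passage 8 against 5 and -0.116 for calves against adults in muscle. For sorted against unsorted SCs at passage 2 it was 0.111. A negative difference raises the log2FC and a positive one lowers it. Muscle held the fewest UMIs, which limits SRXN1, SLC7A11 and NQO1 there.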
